A study of Mus musculus with 4 samples.

Results

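The genes that encode the proteins of the cytosolic ribosome were followed across 4 poly(A) RNA-seq libraries of mouse lymphoma. They were chosen by name alone: symbols made of RPL or RPS and a number (with an optional A, X or L and a further number), and Rpsa, Rplp0, Rplp1 and Rplp2, where the symbol stood in both deposited tables. This gave 85 of 24943 genes, 52 of the large and 33 of the small ribosomal subunit, on 19 chromosomes, and left out names that end in -ps, which mark pseudogenes. Of the 85, 83 are annotated as protein coding and 2 (Rps4l and Rpl32l) as pseudogenes.

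The series addresses a TP63 fusion in lymphomagenesis of the mouse. Every sample is labelled as a transgenic mouse with an enlarged, tumour-bearing spleen, from which spleen cells were taken after lysis of red cells. The labels share all their terms, so the samples form 1 group, called lymphomas 1 to 4 here (titled GW19, GW95, GW255 and GW328). They name no transgene, promoter, strain or age and describe no sort for tumour cells, and no tumour-free spleen is among the samples. With 1 group there was no test between conditions and there are no p-values. Each library stands for itself, and whether the samples came from separate animals is not stated.

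A ribosome holds 1 copy of most of these proteins, so their genes are transcribed at high and matched levels in dividing cells. Their mRNAs begin with a run of pyrimidines, the terminal oligopyrimidine (TOP) tract, which is bound by the repressor Larp1 and ties their translation to the kinase mTOR. In blood cells the family is known for Diamond-Blackfan anaemia, caused by loss of 1 copy of single members, and for mutations of a few members in lymphoid tumours. Unassembled Rpl5 and Rpl11 bind MDM2 and so raise p53.

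The start sites of 7 members described below are shown first, because a run of pyrimidines at the start is the mark of a TOP mRNA: a stalk protein (Rplp2), members with a large or a small spread between libraries (Rps27l, Rps2, Rps7 and Rpl35a) and a pair that was nearly absent from the counts (Rps27 and Rpl26). Each line gives 60 bases before to 15 bases after the start of transcription on the gene's own strand, from RefSeq on GRCm38.p6. Where a gene had more than 1 start, the start with the longest run is shown (of 3 for Rpl35a and of 2 for Rps27l). Capitals mark the longest run of C or T that overlaps the window from 10 bases before to 15 after the start. Such a run need not cover the start, so it is not by itself a TOP tract. The marked runs of Rps27l, Rps7 and Rpl26 ended before the start, and that of Rps2 began after it. Rps7 held further runs as long as the marked one, also after the start, and the first was marked.
Rplp2, chr7:141447591-141447665, plus strand: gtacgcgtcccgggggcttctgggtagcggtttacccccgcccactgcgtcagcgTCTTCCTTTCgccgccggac
Rps27l, chr9:66946026-66946100, plus strand: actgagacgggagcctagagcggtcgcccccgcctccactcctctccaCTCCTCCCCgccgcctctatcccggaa
Rps2, chr17:24720003-24720077, plus strand: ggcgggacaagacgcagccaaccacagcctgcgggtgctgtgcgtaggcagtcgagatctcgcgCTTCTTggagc
Rps7, chr12:28635939-28636013, minus strand: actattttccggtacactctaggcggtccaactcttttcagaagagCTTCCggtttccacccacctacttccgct
Rpl35a, chr16:33056422-33056496, plus strand: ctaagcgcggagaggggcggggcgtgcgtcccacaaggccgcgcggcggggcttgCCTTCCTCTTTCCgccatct
Rps27, chr3:90213634-90213708, minus strand: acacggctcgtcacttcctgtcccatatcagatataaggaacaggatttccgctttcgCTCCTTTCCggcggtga
Rpl26, chr11:68901506-68901580, plus strand: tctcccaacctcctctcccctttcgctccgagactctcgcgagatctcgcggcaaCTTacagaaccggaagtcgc

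The runs in these windows were 10, 9, 6, 5, 13, 9 and 3 bases long, in the order shown. A RefSeq promoter was found for 64 of the 85 members, with 76 start sites in all. A run of 7 or more C or T overlapped the window at 51.3% of the 76, against 22.3% of all 32851 promoters in the table. The letters CTTCCG, the core read by ETS-family factors, stood on either strand of the 300-base promoters (250 bases before to 50 after the start) of 59.2% of the members' sites and 16.9% of all. TATAAA was found at 10.5% and 13.6%, and CCATTG at 11.8% and 13.7%. Matches of letters are a description and not evidence of binding or of a TOP tract. Members with the longer run had a median log2 ratio of lymphoma 1 to lymphoma 4 of 1.52 (34 genes), and those without it 1.34 (24 genes), on the scale of CPM (counts per 1000000 counts). The quartiles overlapped, from 1.15 to 1.92 with the run and from 0.91 to 1.66 without it. Among the starts shown, Rpl35a, whose ratio of lymphoma 1 to lymphoma 4 was smaller than that of most members, had the longest run. Its start was chosen from 3 for the length of its run, so run lengths are not compared evenly between these genes. Rps2, whose ratio was larger than that of most members, had a run of 6.

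Before the results, the libraries themselves need a description. They held 7773546 to 9602413 counts, and CPM were scaled with TMM factors between 0.838 (lymphoma 1) and 1.17 (lymphoma 4). Where no read was counted, up to 3 counts remain possible, or 0.294 to 0.379 CPM. Lymphomas 1 and 2 were alike in a way that the other libraries were not. Of the genes at 20 CPM or more in lymphoma 1 and at most a 20th of that in lymphomas 3 and 4, 71 in all, the level in lymphoma 2 was 0.669 of that in lymphoma 1 (median, quartiles 0.645 to 0.712). The reverse choice of the same pair gave 1.49 (53 genes, quartiles 1.41 to 1.54). It can pick the same genes, so it is not a separate observation. For the other pairs with 10 or more such genes the median ratio was at most 0.140, or had wide quartiles (0.878, from 0.0402 to 1.38, for 12 genes of lymphoma 2 in lymphoma 4). Lymphomas 1 and 2 may therefore not be independent samples, and the family's share, counts and median ratios are also given without lymphoma 2. The summed CPM of 7 B cell markers (Cd79a, Cd79b, Ms4a1 and Pax5 among them) was 66.9, 1319, 4268 and 5868 in lymphomas 1 to 4. That of 7 T cell markers (Cd3d, Cd3e, Cd3g, Cd2, Cd5, Lck and Tcf7) was 4425, 3421, 378 and 864. The B cell sum was thus lowest and the T cell sum highest in lymphoma 1. All 14 markers had counts in every library, but some had few. In lymphoma 3, Lck had 315 CPM, while Cd3d, Cd3e and Cd3g had 10, 6 and 5 counts. Lck was lowest in lymphoma 4, at 145 CPM, whereas these Cd3 genes, Cd2 and Cd5 were lowest in lymphoma 3. Of 7 erythroid markers 2 (Hba-a1 and Hbb-b1) had no counts in any library and the sum was at most 5.46 CPM. In FPKM, a measure described below, these 2 did have values. Hba-a1 had 19.96, 20.38, 0.00197 and 69.99 FPKM in lymphomas 1 to 4, and Hbb-b1 28.4, 170.3, 24.9 and 88.9 FPKM. The low sum in CPM therefore does not show that erythroid RNA was absent or alike in the libraries. Of 5 stromal markers 2 had no counts in any library and the sum was at most 1.98 CPM. The macrophage sum (5 genes) ran from 115 to 387 CPM and the neutrophil sum (5 genes) from 15.2 to 465 CPM, both highest in lymphoma 4. RNA from fewer cells of a type and less RNA per cell cannot be told apart in these bulk libraries.

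Ribosomal protein genes took a share of the counts that was largest in lymphoma 1 and smallest in lymphoma 4. For lymphomas 1 to 4 the 85 genes held 22.6%, 19.0%, 14.8% and 11.3% of the counts, with a mean of 16.9% ± 4.93 (SD, n = 4). The exact 95% binomial intervals covered counting error only and were narrow, 22.6% to 22.7% in lymphoma 1 and 11.3% to 11.3% in lymphoma 4. Without lymphoma 2 the mean was 16.3%. The 52 large-subunit genes held 12.0%, 10.1%, 8.38% and 5.72%, and the 33 small-subunit genes 10.6%, 8.90%, 6.42% and 5.60%. Lymphoma 1 was thus highest and lymphoma 4 lowest for both subunits, but by unequal steps. Large-subunit counts were 1.13, 1.14, 1.31 and 1.02 times the small-subunit counts, a ratio at its largest in lymphoma 3 and at its smallest in lymphoma 4. In the deposited table of FPKM (fragments per kilobase of transcript, scaled to a fixed number of fragments), which weighs short transcripts more, the members made up 49.8%, 47.2%, 41.8% and 37.0% of the sum over all genes. Of the 20 genes with the highest mean CPM, 14 were members, and of the first 100, 60.

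**Figure D1:**
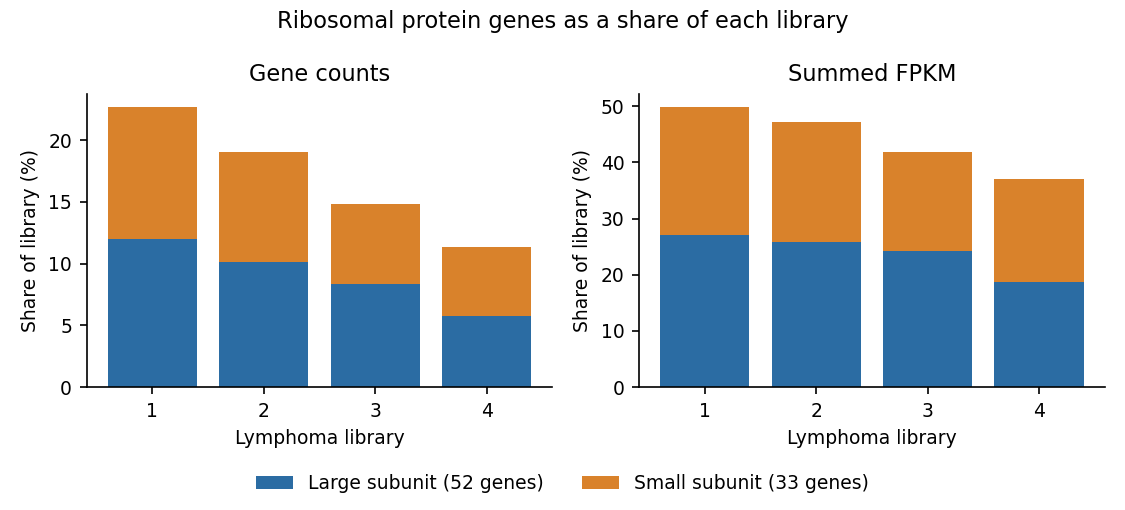
Share of each library taken by ribosomal protein genes, as a percent of gene counts (left) and of summed FPKM (right), for lymphomas 1 to 4. Stacked bars give the 52 large-subunit and 33 small-subunit genes. The share of counts was 22.6% in lymphoma 1 and 11.3% in lymphoma 4.

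Within the family, members ranked alike in the 4 libraries. The highest mean FPKM was that of Rplp1, a protein of the stalk that recruits elongation factors, with 23402, 18876, 10242 and 3615 FPKM in lymphomas 1 to 4. It was 6.47-fold higher in lymphoma 1 than in lymphoma 4. Rps12 followed with 13975, 11282, 7710.4 and 5432 FPKM, and Rps26, which lies at the mRNA exit channel, with 12859, 10255, 7068 and 6018 FPKM. For both, lymphoma 1 was again the highest library and lymphoma 4 the lowest, at a smaller ratio. Rps14, at 12835, 10052, 4858 and 4214 FPKM, and Rpl32, at 11846, 9662, 6019 and 3236 FPKM, were next. The ranking of the 81 members past the filter described below was close between libraries: across these genes, which are not replicates, Spearman's rho of FPKM was 0.998 for lymphomas 1 and 2, 0.945 for 1 and 3, 0.946 for 2 and 3, and 0.868 to 0.891 for the pairs with lymphoma 4 (0.882 for 1 and 4). At the low end of the genes outside the isotype list stood Rpl32l (8.98, 9.90, 4.16 and 2.41 FPKM), Rps27 and Rpl26, of which more below.

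Most members were highest in lymphoma 1 and lowest in lymphoma 4 in CPM. The numbers of the libraries are names and imply no order or time. A gene entered these counts if it had 1 CPM or more in at least 1 library, which 81 members and 13543 genes in all did. The highest level was in lymphoma 1 for 75 of the 81 members, against 29.4% of all genes tested, and the lowest in lymphoma 4 for 69, against 33.2% of all genes. For 60 of the 81, lymphoma 1 was highest, then 2, then 3, then 4, a ranking that 14.2% of all genes had. Without lymphoma 2, 66 members ranked lymphoma 1 above 3 and 3 above 4, 75 were highest in lymphoma 1 and 69 lowest in lymphoma 4. The shares of all genes given above are for 4 libraries and do not apply to these counts. An order of fewer libraries is met more often, so nothing is read from the larger count. Of the members, 61 were 2-fold or more higher in lymphoma 1 than in lymphoma 4, against 24.6% of all genes tested, and 0 were 2-fold lower. Against lymphoma 3, 31 members were 2-fold or more higher in lymphoma 1, beside 15.3% of all genes. Between lymphomas 3 and 4 the count was 20 of 81 higher in lymphoma 3, a share of 24.7% that is near the 23.2% of all genes.

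The median log2 ratio of CPM + 1 over the 81 members was 1.42 for lymphoma 1 over 4, 0.90 for 1 over 3, and 0.65 for 3 over 4, with an SD over members of 0.64, 0.69 and 0.53. Without lymphoma 2 these medians were 1.42, 0.90 and 0.61. CPM were not rescaled for this, so no gene's ratio changed and only the set of genes past the filter could. The medians without lymphoma 2 therefore do not bear on whether lymphomas 1 and 2 are independent. The medians over all genes tested were -0.12, -0.14 and 0.06. Short genes behaved differently from long ones in these libraries. Genes outside the family with an exonic length of 1000 to 2000 bases, near the members' median of 1770 bases, had medians of 0.46 for 1 over 4, 0.02 for 1 over 3 and 0.47 for 3 over 4. Genes of over 8000 bases had a median of -0.99 for 1 over 4. Within the family, length and the log2 ratio of lymphoma 1 to 4 had a Spearman's rho of 0.04 across 81 genes, against -0.26 across 13409 genes with a length. The part of length in the low values of lymphoma 4 was not tested. The marker sums of B cells, T cells, macrophages and neutrophils given above also differed between the libraries, as did 7 proliferation genes, which summed to 1821, 1381, 2648 and 313 CPM in lymphomas 1 to 4. Of these, 6 (Top2a, Birc5, Pcna, Cdk1, Ccnb1 and Mcm2) were lowest in lymphoma 4, as the family was, but only Pcna, Ccnb1 and Mcm2 were highest in lymphoma 1. The seventh, Mki67, had 29.6, 58.4, 668 and 66.4 CPM and was lowest in lymphoma 1. The part of these cells and genes in the result was not tested.

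Scaling changes the size of these ratios. With total counts and no TMM, the median over all genes moved to -0.51 for lymphoma 1 over 4, and that over members to 0.94. Under that scaling 75 members were higher in lymphoma 1 than in lymphoma 4 and 4 were lower, namely Rpl29, Rpl34, Rpl35a and Rps7. The number 2-fold or more higher in lymphoma 1 than in lymphoma 4 was then 37 and not 61. With TMM, 78 were higher and Rpl29 alone was lower in CPM.

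**Figure D2:**
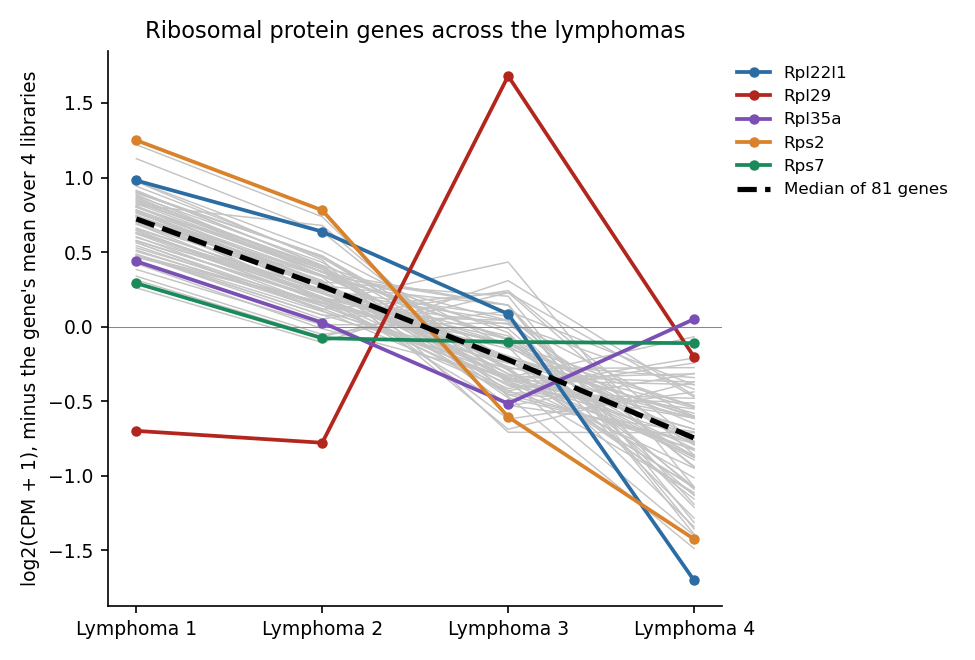
Each line is 1 of the 77 ribosomal protein genes with 10 or more counts in every library, as log2(CPM + 1) minus the gene's own mean over the 4 libraries. The dashed line is the median of 81 members, which runs from 0.72 in lymphoma 1 to -0.75 in lymphoma 4. Lines join the values of 1 gene and imply no order of libraries. Rpl29 is highest in lymphoma 3, and Rps7 is nearly level in lymphomas 2 to 4 with this scaling (with total counts alone it is higher in lymphoma 4 than in lymphoma 1).

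Lymphoma 2 tracked lymphoma 1 gene by gene. Over the 77 members with 10 or more counts in every library, the ratio of CPM in lymphoma 2 to lymphoma 1 had a median of 0.741, quartiles of 0.718 and 0.758 and a range of 0.680 to 0.946. The SD of its log2 was 0.07, against 0.84 over 9728 genes counted as well. The narrow ratio was not particular to the family. Over 78 mitochondrial ribosomal protein genes it had a median of 0.742 and quartiles of 0.708 and 0.773.

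The proteins of the stalk had the largest median ratio of lymphoma 1 to 4 among the 8 role lists. All 4 (Rplp0, Rplp1, Rplp2 and Rpl12) were highest in lymphoma 1, then 2, 3 and 4, and their median log2 ratio of lymphoma 1 to 4 was 2.02. Rplp0, the base of the stalk, had 9125, 6817, 4004 and 2324 CPM. Rplp1 had 8163, 5809, 2910.0 and 1415 CPM, and its partner Rplp2 3602, 2579.9, 1548 and 859 CPM. Rpl12, which forms the stalk's foot, had 4466, 3256, 1959 and 1419 CPM. Each of the 4 therefore ranked the libraries alike.

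The pair that joins the ribosomal RNA of the central protuberance differed in size of change. Rpl5 had 3186, 2456, 1784 and 1407 CPM, and Rpl11 2934, 2166, 1728 and 725 CPM. Rpl11 was thus 4.05-fold higher in lymphoma 1 than in lymphoma 4 and Rpl5 2.26-fold. Of the 15 proteins reported to bind MDM2, 14 passed the filter, with a median log2 ratio of 1.32, and 13 of them were lowest in lymphoma 4. Of 19 genes of Diamond-Blackfan anaemia, 18 passed, with a median of 1.32, and 14 were lowest in lymphoma 4. Beside these counts stand 69 of the 81 members of the family and 33.2% of all genes tested, so neither list is set apart from the family by them. Rps19, the gene most often mutated in that disease, had 2871, 2144, 1453 and 921 CPM. Rps6, the target of S6 kinase, had 3545, 2689, 2052 and 1628 CPM.

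The members mutated in lymphoid tumours (Rpl5, Rpl10, Rpl11, Rpl22 and Rps15) had a median of 1.29, and all 5 ranked the libraries 1, 2, 3 and 4 from high to low. Rpl22, which also binds other RNAs and limits T cell development when lost, had 1754, 1306, 1138 and 578 CPM. Rpl10, mutated in T cell leukaemia, had 3908, 2930.2, 1896 and 1593 CPM. Neither was near the floor in any library. The 8 exit-tunnel proteins past the filter had a median of 1.37. The 4 X-linked members (Rpl10, Rpl36a, Rpl39 and Rps4x) had a median of 1.06, and Rps4x, a small-subunit protein, had 5443, 4171, 3278 and 3066 CPM. Rps27a, made as a fusion with ubiquitin, had 3699, 2620.5, 2394 and 948 CPM.

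The steepest members were isotypes and Rps2. Rps27l, a p53-induced relative of Rps27 (chr9:66946086-66949516, plus strand, mm10), had 305, 218, 93.9 and 45.9 CPM, 6.53-fold from highest to lowest in CPM + 1. Rpl22l1, the relative of Rpl22 that can replace it, had 473, 372, 254 and 72.8 CPM, a 6.42-fold spread. Lymphoma 4 lay far below lymphoma 3 for Rpl22l1, and less so for Rpl22, at 578 against 1138 CPM. Rps2 (chr17:24718116-24721929, plus strand) had 10388, 7502, 2870.2 and 1627 CPM, a 6.38-fold spread. It held 0.871% of all counts in lymphoma 1 and 0.190% in lymphoma 4. A spread of 4-fold or more was seen in 13 of 81 members, against 35.7% of all genes tested. That count was 1 without lymphoma 4, 5 without lymphoma 1 and 13 without lymphoma 2, and 5 with total counts and no TMM. Of the other isotypes, Rpl7l1 had 228, 170.1, 123 and 119 CPM. Rpl3l, known from muscle, had 0, 5, 15 and 0 counts, and Rps4l 0, 10, 8 and 0. Rpl39l had 2, 2, 0 and 0 counts, and Rpl10l, known from testis, had 0 counts in every library, which allows up to 3 counts in each.

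Rps7 was the flattest, with 3039.7, 2354, 2313 and 2301 CPM, a 1.32-fold spread. It is a small-subunit protein that also binds MDM2 (chr12:28630854-28635953, minus strand). As a share of all counts it was 0.255% in lymphoma 1 and 0.269% in lymphoma 4, so its direction turns with the scaling. Rpl36a had 895, 682, 761 and 539 CPM, a 1.66-fold spread. For 9 members lymphoma 3 and not lymphoma 4 was lowest, among them Rpl13a, Rpl35a, Rpl37, Rps10, Rps21, Rps23, Rps24 and Rps28. The 9 of 81 are a smaller share than the 21.3% of all genes tested that were lowest in lymphoma 3. Of the 9, 5 are small-subunit genes. Rpl35a had 1020.4, 767, 526 and 779.7 CPM, and lymphoma 4 lay above lymphomas 2 and 3.

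Most members lay close to the common profile of the family. The profile is the median, over members, of the value centred on each gene's mean, and was 0.72, 0.27, -0.22 and -0.75 in log2 for lymphomas 1 to 4. The largest difference from it in any library had a median of 0.33 over the 77 members with 10 or more counts in every library, and 60 of them stayed within 0.5. A difference of 1 or more (2-fold) was reached by 5 of 81 members and by 61.1% of all genes tested. The profile is the members' own median, so other genes lie farther from it by construction and nothing is read from that share. The 5 members were Rpl29, which was well counted, and Rpl34, Rpl3l, Rps4l and Rps27, which lay near the floor. The closest below the limit was Rpl22l1 at 0.96. Without lymphoma 1 the count was 1, without lymphoma 2 it was 4, and without lymphoma 3 it was 2.

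Rpl29, a large-subunit protein (chr9:106429454-106431568, plus strand), was highest in lymphoma 3. It had 321, 304, 1675 and 453 CPM, so lymphoma 3 was above the other libraries by 3.70-fold or more and lay 1.90 in log2 above the common profile. In FPKM it had 739, 641, 1994 and 519.9, again highest in lymphoma 3, but with lymphoma 4 below lymphoma 1 and not above it. Of the 50-base stretches of its mRNA, 66.6% also occur in other annotated transcripts, from 82 genes of which 81 are pseudogenes, so its counts could hold reads of copies. Whether they do was not tested.

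Between lymphomas 3 and 4 the median ratio was larger for large-subunit than for small-subunit members, with overlapping quartiles. The median log2 ratio of lymphoma 3 to 4 was 0.73 for 48 large-subunit and 0.35 for 33 small-subunit members, and that of lymphoma 1 to 4 was 1.55 and 1.30. The quartiles of the 3 to 4 ratio ran from 0.41 to 1.06 and from 0.04 to 0.73. Rpl23, which binds MDM2, had 2583, 2075, 2504 and 881 CPM, so lymphoma 3 was close to lymphoma 1. Rpl21, at 1415, 1098, 1463 and 857 CPM, was highest in lymphoma 3, and Rpl23a had 2637, 1958, 2234 and 1104 CPM. Rps23, a protein of the decoding centre, showed the other order, with 2821, 2084, 1093 and 1241 CPM. Rpl13a had 3149, 2406, 1184 and 1478 CPM. These 5 were chosen after their values were seen.

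**Figure D3:**
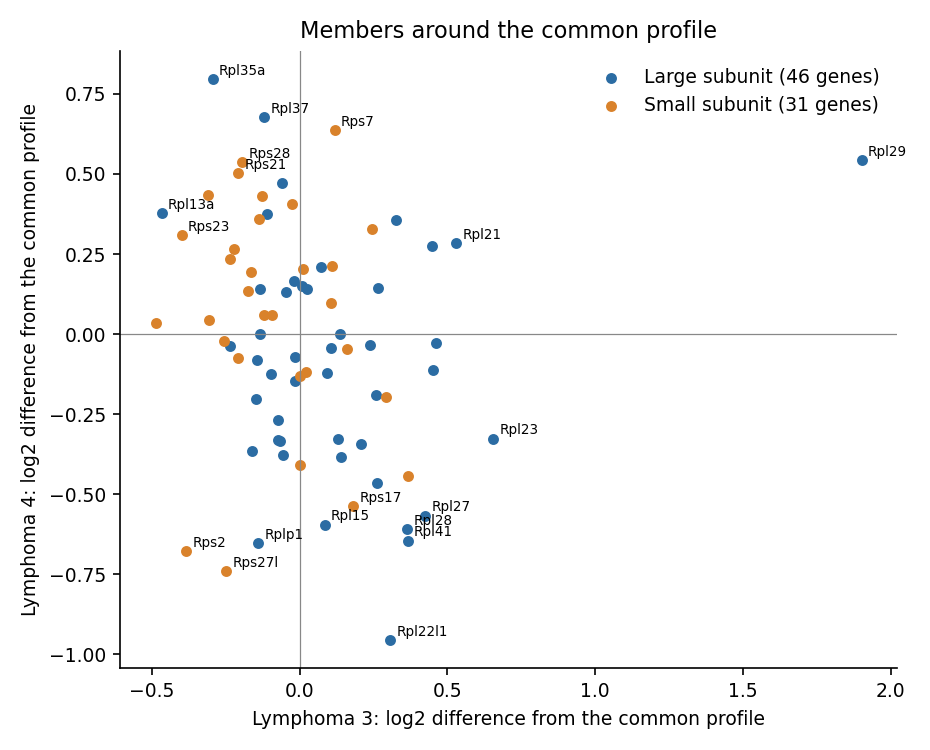
Difference from the common profile in lymphoma 3 (horizontal) and lymphoma 4 (vertical), in log2, for 46 large-subunit and 31 small-subunit genes with 10 or more counts in every library. Names mark genes past 0.5 in any library, and Rpl13a and Rps23. Rpl29 lies at 1.90 in lymphoma 3, and Rpl22l1 lowest in lymphoma 4 at -0.96.

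A few members were nearly absent from the count table. Rpl26 had 0 counts in every library, Rpl30 had 3, 3, 6 and 0, Rpl34 had 6, 31, 46 and 6, and Rps27 had 2, 6, 17 and 0. All are core proteins of the ribosome, and the FPKM table listed values for each. Rpl26 had 256, 200.3, 202 and 31.7 FPKM, and Rpl30 345, 322, 205 and 62.0 FPKM. Rpl34 had 353, 252, 136 and 78.1 FPKM, and Rps27 19.4, 21.3, 12.3 and 8.76 FPKM. These are low values too, since 67 of the 85 members had a mean of 1000 FPKM or more.

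In the FPKM table a copy of each of the 4 held the level that a core member has. Of 16 genes outside the family that carry 10% or more of a member's 50-base stretches and stand in both tables, 4 had 0 counts in every library, and they were copies of these 4 members. Rps27rt, a copy of Rps27 that shares 98.6% of its stretches, had 10953, 10164, 7358 and 12568 FPKM. Rpl34-ps1 had 8549, 6809, 5397 and 3130.1 FPKM (37.9% shared). Gm15772, a copy of Rpl26, had 6261, 5187, 6739.7 and 3266 FPKM (60.6% shared), and Gm12191, a copy of Rpl30, had 4339, 3838, 3088 and 3490.4 FPKM (47.8% shared). Each exceeded its parent gene in every library. Rps27rt and Gm12191 were not lowest in lymphoma 4, and Rps27rt was highest there. The 4 copies made up 3.83%, 3.81%, 3.83% and 5.87% of summed FPKM, and with them the family's share was 53.6%, 51.0%, 45.7% and 42.9%. Rpl9 and Rpl10 share 93.3% and 92.1% of their stretches with other transcripts and were well counted. Over all 85 members the shared percent and mean counts had a Spearman's rho of 0.16. The shared percent covers all annotated transcripts, and of 1103 pseudogenes that share a stretch with a member, 23 were listed in the count table. Nothing is therefore read from this rho. How reads that match several places were counted is not given in the sources used here, and the part of shared sequence in the low counts was not tested.

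**Figure D4:**
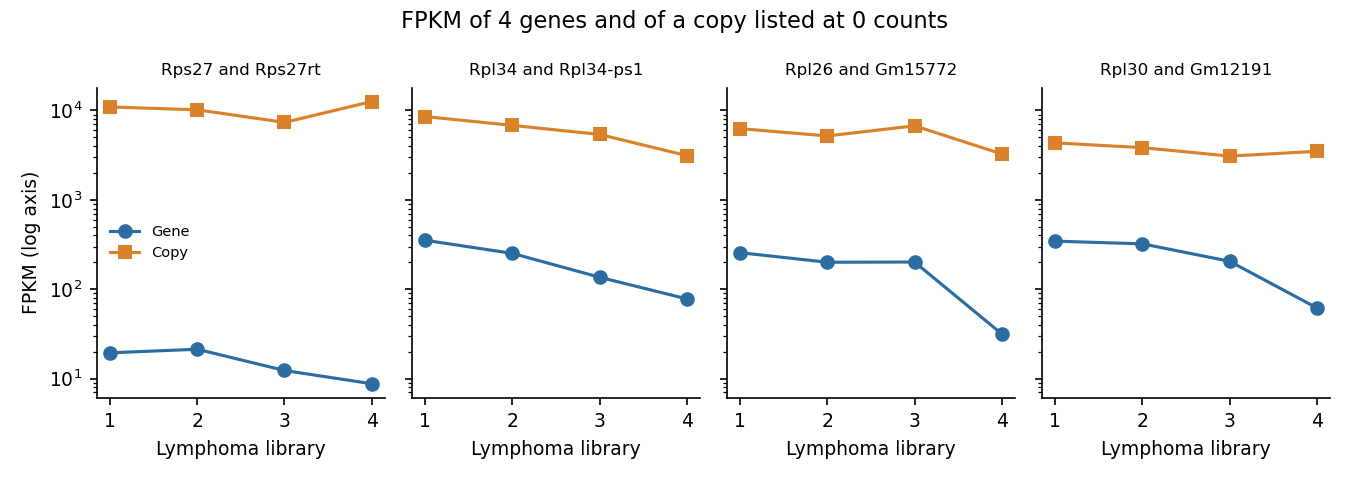
FPKM on a log axis in lymphomas 1 to 4 for Rps27, Rpl34, Rpl26 and Rpl30 (circles) and for 1 copy of each that had 0 counts in every library (squares). Each copy lies above its gene in all 4 libraries, up to 12568 FPKM for Rps27rt in lymphoma 4.

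Other copies with counts in the table did not all rank the libraries like the family. Rpl14-ps1 (318, 233, 146 and 123 CPM) ranked them as most members did. Rpl37rt had 115, 97.4, 74.9 and 167 CPM and Rps15a-ps6 57.5, 46.6, 7.95 and 96.9 CPM, both highest in lymphoma 4. Counts per kilobase and FPKM, each relative to the other members, disagreed by 4-fold or more in all 4 libraries for Rpl26, Rpl30, Rpl34 and Rpl35a. Rps27, Rps19 and Rpl32l did so in 3 of the 4. For Rps27 the log2 difference was -5.02, -3.74 and -1.50 in lymphomas 1 to 3, and it had 0 counts in lymphoma 4. For Rps19 it was -2.03, -2.13 and -2.12 in lymphomas 1 to 3, and just inside 4-fold in lymphoma 4. For Rpl35a the disagreement was about equal in all libraries (-2.07 to -2.16 in log2), so its course across libraries was the same in both tables (2849, 2376, 1791 and 2400.0 FPKM).

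Genes that work beside the ribosome were read from fixed lists. Mitochondrial ribosomal protein genes, which serve the separate ribosome of mitochondria, had a median log2 ratio of lymphoma 1 to 4 of 1.96 (78 genes past the filter), and 77 of them were lowest in lymphoma 4, as were 33.2% of all genes tested. Over lymphoma 3 to 4 their median was 1.34, where that of the 81 cytosolic members was 0.65. Other TOP mRNAs had a median of 1.35 (22 genes, 15 lowest in lymphoma 4), ribosome biogenesis factors 1.19 (30 genes, 24 lowest) and snoRNA host genes 2.04 (10 genes, all lowest in lymphoma 4). The lists of the MYC network (8 genes, -1.06; Myc with Max, Mnt, Mga and others) and of mTOR and translation control (16 genes, -0.27) had negative medians. Both lists mix genes of opposed roles, so their medians are no measure of Myc or mTOR activity. All of these ratios share lymphoma 4, and the members of a list are not replicates.

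Eef1a1 and Eef2, the elongation factors with TOP mRNAs, had 36334, 27240.2, 15414 and 14718 CPM and 13014, 9874, 6965 and 4944 CPM. Both ranked the libraries as most members did. Fau, which yields a small-subunit protein from a ubiquitin-like fusion, had 2368, 1848, 1173 and 1385 CPM. Npm1, a nucleolar chaperone of ribosome assembly, had 2613, 1895, 2297 and 623 CPM. Larp1, the TOP mRNA repressor, was highest in lymphoma 3, at 111, 137, 260.1 and 136 CPM. Myc, an activator of ribosomal protein genes, had 112, 149, 151 and 219 CPM and was lowest in lymphoma 1, where the family was highest.

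**Figure D5:**
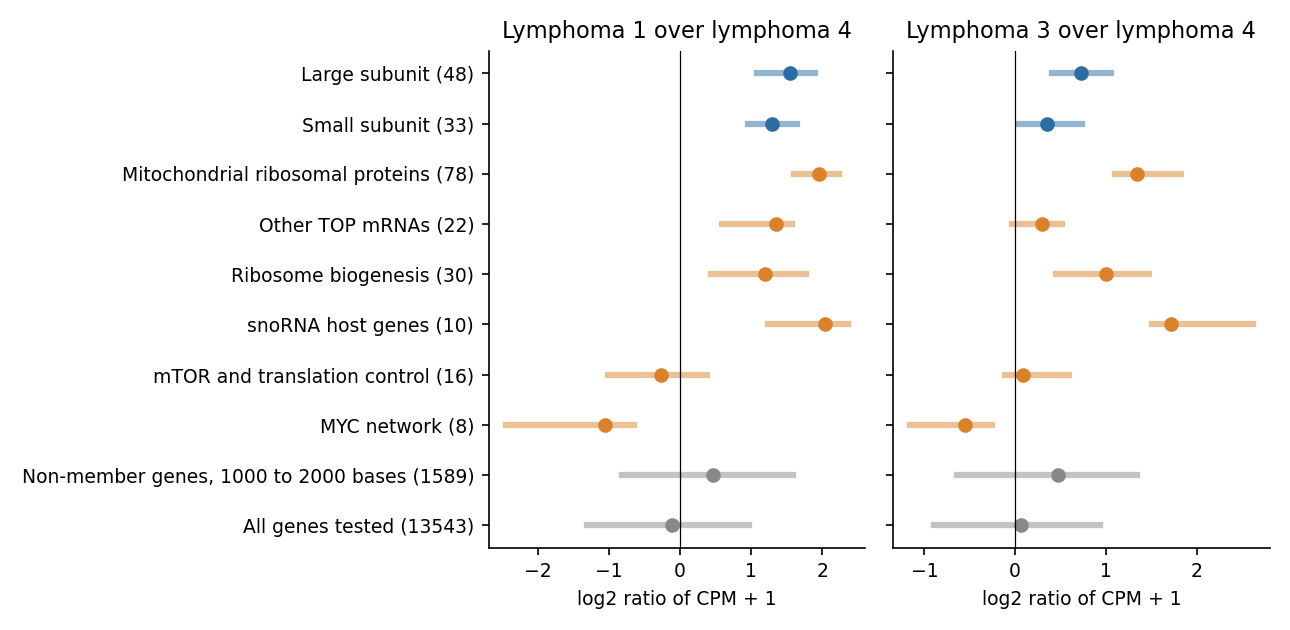
Median (point) and quartiles (bar) of the log2 ratio of CPM + 1 between libraries for gene lists, with the number of genes in brackets; lymphoma 1 over 4 on the left and lymphoma 3 over 4 on the right. The large and small subunits lie at 1.55 and 1.30 on the left, and all genes tested at -0.12.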

How the data were processed

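Poly(A) RNA-seq of 4 lymphoma samples in 1 group was used. The deposited gene counts are whole numbers. The submitters' processing notes list STAR 2.4.2a and the build mm10. The deposited values read as FPKM are attributed to Cufflinks 2.2.1, also listed there. That table names no unit, and they were read so because they are not whole and scale with gene length. Its 5 columns that match no sample were not used. For annotation, strand setting and multi-mapping reads, no statement is given in the sources used here. Rows whose gene name had become a date (26 rows, 0.191% to 0.201% of counts) were left out.

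CPM used TMM effective library sizes (edgeR 4.0.16, R 4.3.3). Genes with 1 CPM or more before TMM in at least 1 library were kept, and log2 ratios used CPM + 1, which understates changes of low genes. A fold rule, not a test, calls a difference. Intervals are exact and cover counting error only. Positions, lengths and 50-base matches (exact, same strand) are from GENCODE M21, promoters from RefSeq on GRCm38.p6. Computing used Python 3.11.15 with pandas 2.3.3 and scipy 1.17.1, and the counting rules were tested on simulated data. Alternatives were DESeq2 1.42.0 size factors, total counts alone, total counts of other genes (added after seeing the data), no filter, a mean of 5 CPM, a pseudocount of 0.25, values from the FPKM table, and each library left out in turn.

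The members and lists were chosen with earlier results of these data known. Named genes are those with the 5 highest and 3 lowest mean FPKM, the isotypes, those departing 2-fold from the common profile, the 3 largest and 3 smallest spreads, those that differ between tables, and Rpl5, Rpl11, Rpl22, Rpl10, Rps27a, Rps6, Rps19 and Rps4x. From the related lists they are the 2 with the highest mean, Fau, Larp1, Myc and Npm1. A few genes that these rules name are not reported here.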

Additional observations from a re-analysis of the deposited data

Results flagged for a closer look

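Of 81 members examined over the 4 libraries, 2 had a library whose gap to its nearest neighbour took up more of the whole range than Dixon's 95% critical value allows. Chance marks about 1 in 20 groups of this size. Rpl29 stood apart at 1675 CPM in lymphoma 3, with a gap of 0.891 of its range above lymphoma 4. Rps7 stood apart at 3039.7 CPM in lymphoma 1, with a gap of 0.927 of its range, which is itself small because its other libraries lie between 2301 and 2354 CPM.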

How the results depend on the processing

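Of 155 values recomputed under 15 alternatives, 142 were called the same and 13 moved. Some could not move. CPM were not rescaled when the filter changed or a library was left out, so ratios of single genes, such as Rpl22l1, stayed fixed there. The tally is therefore no measure of stability. A count was the same if it lay within 1.5-fold of the main value. Other values were the same if they moved by less than their SD over members or libraries. The median log2 ratio of lymphoma 1 to 4, 1.42 with TMM and 0.94 without, was thus the same. No log2 value changed sign, and counts could not be called reversed. The direction of Rps7 and Rpl35a between lymphomas 1 and 4 was not among these values. With total counts and no TMM, 37 members were 2-fold or more higher in lymphoma 1 than in lymphoma 4 (61 with TMM), 5 had a 4-fold spread (13 with TMM) and 2 departed from the common profile (5 with TMM). Scaled by the total counts of other genes, 6 had a 4-fold spread. Departing members numbered 1 with a mean of 5 CPM or more, 3 in the FPKM table and 16 at 1.5-fold, and 67 had a spread of 2-fold. Leaving out each library gave 1 to 13 members with a 4-fold spread (1 without lymphoma 4, 5 without lymphoma 1), 1 to 5 departing, 69 to 76 lowest in lymphoma 4, 75 to 76 highest in lymphoma 1, and a mean share of 15.05% to 18.8%. The mean share of summed FPKM was 44.0%. The cause was not tested. With fewer libraries the spread and the profile rest on fewer values. No paired analysis was possible because the samples form 1 group. Members near the floor cannot be ranked at this depth.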
